A study of Mus musculus with 6 samples.

Results

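Lysosome genes were followed in messenger RNA from marrow cells of mice with immune bone marrow failure, in which T cells destroy the blood-forming tissue. The 36 genes were taken by symbol from the gene count table as a list of lysosomal enzymes, membrane proteins, proton pump subunits and the regulator Tfeb, out of 54532 genes listed. All 36 had counts in the libraries and all 36 passed the filter on low counts. In 3 libraries (pools 1 to 3) the mice had received ruxolitinib, which inhibits the kinases JAK1 and JAK2, and in 3 control libraries (pools 4 to 6) mice with the same disease were untreated. All animals were female CByB6F1 hybrids aged 2 to 5 months, and each library pooled cells of 2 to 3 mice that had been picked with CD8 microbeads. The labels state neither dose, duration and harvest time nor how the disease was induced. The p-values set the difference between groups against the spread between these pools, and variation between single mice was not measured. The libraries held 13829808 to 14139605 counts with ruxolitinib and 15740514 to 17708196 in controls.

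Lysosomes are acid compartments in which proteases, glycosidases and lipases take apart material from endocytosis, phagocytosis and autophagy. A vacuolar proton pump keeps them acid, heavily glycosylated membrane proteins line them, and transporters carry the products out. Macrophages, which clear dead cells and red cell remnants in the marrow, are rich in lysosomes, while cytotoxic T cells use related organelles as their lytic granules. The transcription factor TFEB and its MiT/TFE relatives switch on many lysosome genes through an E-box element in their promoters.

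Marker RNA of several cell types differed between the groups. Levels are in CPM, a library's counts divided by its TMM-scaled size from edgeR. The summed level of 16 macrophage and monocyte markers was 15384, 15709 and 9559 CPM in ruxolitinib pools 1, 2 and 3, against 1262 to 1649.5 CPM in the control pools, and all 16 rose. The summed level of 17 CD8 T cell identity genes was 1881, 2386 and 5377 CPM in ruxolitinib pools 1, 2 and 3, against 10562 to 12894 CPM in control pools, and 16 of the 17 fell. Cd8a, which encodes the CD8 alpha chain, averaged 286 ± 173 CPM with ruxolitinib and 944 ± 118 CPM in controls (SD, n = 3 each). Among the most abundant markers, Trbc2 (T cell receptor, -2.55 ± 0.40 log2 fold change ± SE) and Thy1 (-1.96 ± 0.39) fell, and Hmox1 (haem breakdown, 4.42 ± 0.35) and Lyz2 (lysozyme, 3.43 ± 0.44) rose. No marker of either list was at 0 in any library. Ruxolitinib pool 3 stood between its own group and the controls in both lists. Erythroid markers summed to 125286 to 245603 CPM with ruxolitinib and 1916 to 2747 CPM in controls, and neutrophil markers to 8960.1 to 20899.5 CPM and 1568 to 6059 CPM. B cell markers summed to 277 to 291 CPM and 9.75 to 13.3 CPM, stromal and endothelial markers to 135 to 186 CPM and 33.7 to 40.6 CPM. Dendritic cell markers summed to 77.9 to 87.5 CPM and 65.2 to 79.9 CPM, and osteoclast markers to 150.5 to 274 CPM and 153 to 247 CPM, with ruxolitinib first in each pair. Of the markers tested, 11 of 11 erythroid (Hba-a1 6.48 ± 0.50, Hbb-bs 6.03 ± 0.51), 11 of 14 neutrophil (Ngp 2.40 ± 0.54), 9 of 9 B cell (Cd79b 3.47 ± 0.23, Blnk 3.59 ± 0.28), 8 of 9 stromal (Cxcl12 3.84 ± 0.27), 5 of 10 dendritic and 1 of 3 osteoclast genes rose. The falls were 1 neutrophil, 2 dendritic and 1 osteoclast gene (Itgb3, -0.94 ± 0.23). At the same threshold, adjusted p 0.05 in edgeR, 29.9% of all genes tested rose and 25.3% fell. The small dendritic and osteoclast counts are to be read beside these shares. S100a8 (1.23 ± 0.52), Pecam1 (-0.33 ± 0.20), Itgax (0.72 ± 0.34), Clec10a (-0.53 ± 0.38) and Nfatc1 (0.09 ± 0.32) did not pass. Markers at 0 in all control pools included Ms4a1, Pax5, Igll1, Spib, Flt3, Siglech and Calcr. The part of these cell types in the changes of lysosome genes was not tested, and in bulk RNA fewer cells of a type and less RNA per cell cannot be told apart.

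Of the 36 lysosome genes, 22 rose in the ruxolitinib libraries, 0 fell and 14 did not pass the threshold of adjusted p 0.05 (edgeR quasi-likelihood test, Benjamini-Hochberg over all 13480 genes tested). Among all genes tested, 29.9% were called higher and 25.3% lower. With edgeR, 0 members were lower at an unadjusted p under 0.05 as well, with DESeq2 1 member fell after adjustment (Npc2) and with limma-voom 0 fell after adjustment and 1 was lower before it. The median log2 fold change (ruxolitinib over control) was 1.39 over the 36 genes and 0.03 over all genes tested. In 25 of the 36 genes every ruxolitinib pool lay above every control pool, in 1 gene (Npc2) every ruxolitinib pool lay below, and in 10 the groups overlapped. Among all genes tested, 35.7% had non-overlapping groups with ruxolitinib higher and 30.3% with ruxolitinib lower. The 36 genes together took 1.92, 1.98 and 1.80% of all counts in ruxolitinib pools 1, 2 and 3, against 0.880, 0.856 and 1.05% in control pools 4, 5 and 6. With each pool left out in turn, 19 to 23 genes rose and 0 fell, and without ruxolitinib pool 3 the count that rose was 23. The values ran from the membrane gene Gpnmb, at 3.65 ± 0.30 (log2 fold change ± SE), down to the cholesterol-binding gene Npc2, at -0.45 ± 0.21.

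**Figure D1:**
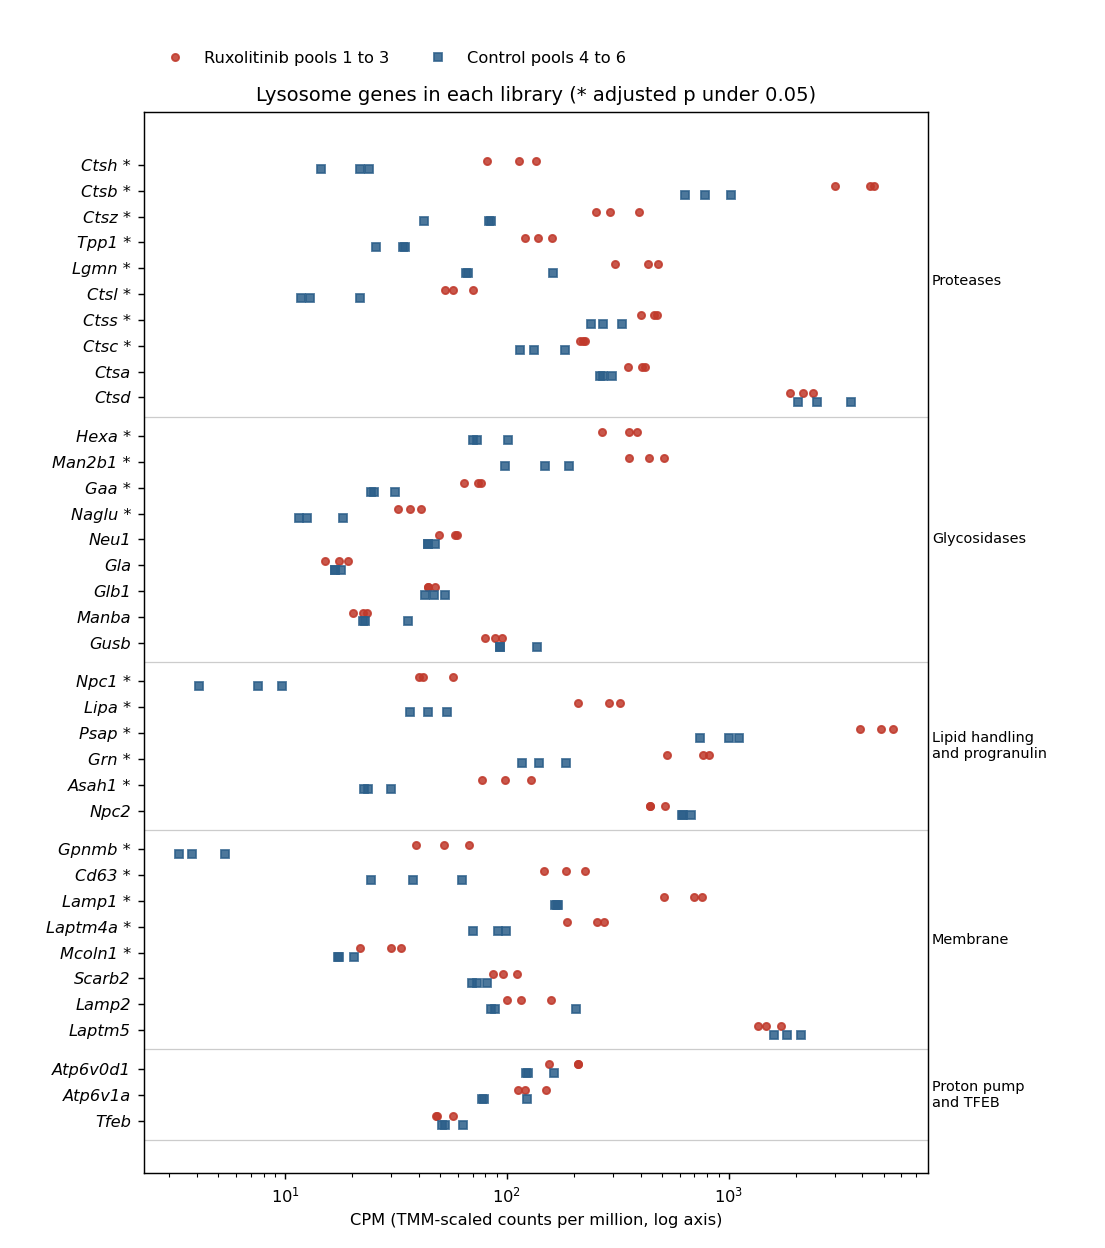
Level of each lysosome gene in CPM (log axis) in the 3 ruxolitinib pools (red circles) and the 3 control pools (blue squares), grouped by role and marked with an asterisk where adjusted p was under 0.05. In 25 genes the red points all lie to the right of the blue ones, and in Npc2 they all lie to the left.

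**Figure D2:**
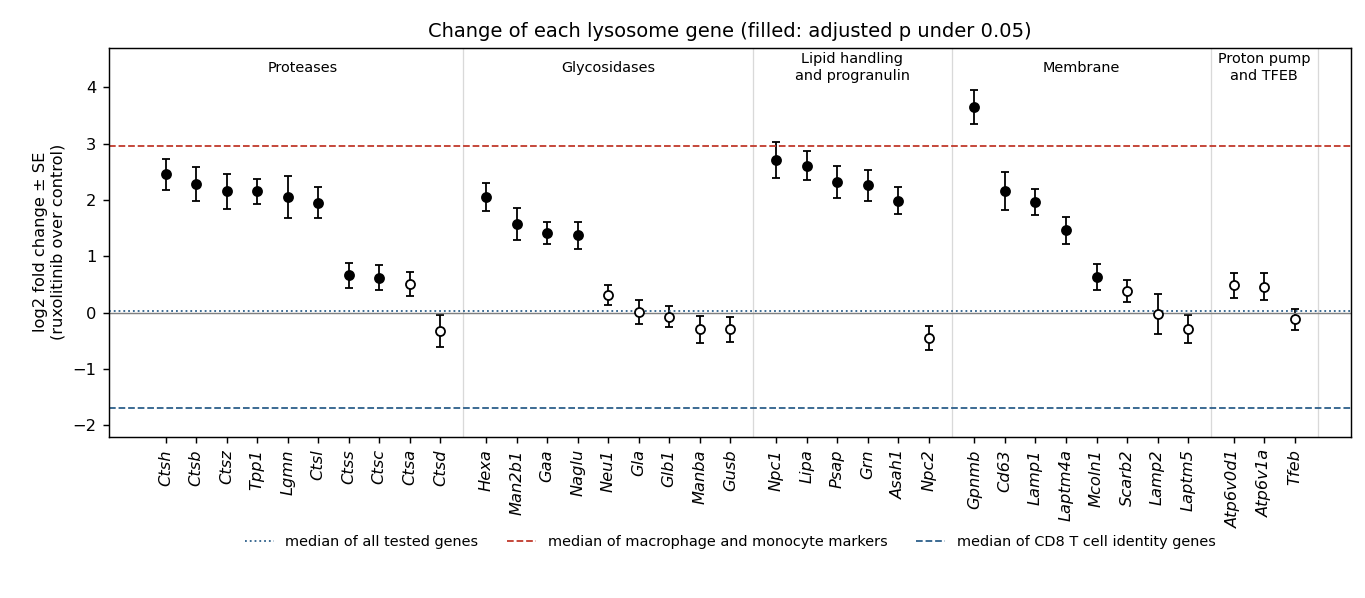
Log2 fold change of each lysosome gene, ruxolitinib over control, with its SE (bars), filled where adjusted p was under 0.05. Horizontal lines give the median of all tested genes (0.03), of macrophage and monocyte markers (2.96) and of CD8 T cell identity genes (-1.70), and Gpnmb alone lies above the macrophage line.

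Ruxolitinib pool 3 was the lowest of its group in 29 of the 36 genes and in 19 of the 22 that rose. Within its group this pool also had the lowest macrophage, erythroid and neutrophil sums and the highest CD8 identity sum. Its TMM factor was the largest, at 1.13 against 0.968 in pool 1 and 0.953 in pool 2. The part of each of these in its lower levels was not tested. Among controls pool 6 was the highest in 20 genes, pool 4 in 14 and pool 5 in 2. Among the 22 that rose pool 4 was the highest in 12 and pool 6 in 10. Control pool 5 was the lowest of its group in 20 of the 36 genes and in 14 of the 22 that rose. The coefficient of variation over 3 pools had a median of 15.9% with ruxolitinib and 20.6% in controls. The widest spread among controls was in Lgmn, at 56.1%, followed by Lamp2 at 54.6%, and in both control pool 6 was the high one. The widest with ruxolitinib was 27.3%, in Gpnmb.

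The promoters are shown because the E-box is the element through which TFEB and its relatives are known to act, so the sequences can be read beside the fold changes. RefSeq promoters (GRCm38.p6, 250 bases before to 50 after the start of transcription) were at hand for 32 of the 36 genes. The search used CACGTG, TCACGTGA, which contains it, and the 10-letter palindrome of the CLEAR element, which contains both. Each reads the same on both strands. CACGTG stood in 12 of 32 lysosome genes (37.5%), against 11.8% of the 9805 tested genes with a promoter and 7.15% of all 32851 promoters. TCACGTGA stood in 6 of 32 (18.8%), against 2.20% and 0.974%. The palindrome stood in 0 of 32, against 0.816% of tested genes and 0.326% of promoters. Of the genes that rose, 6 of 18 held CACGTG, and of those that did not pass, 6 of 14 held it. For TCACGTGA the counts were 1 of 18 and 5 of 14. A match is a description of letters, not evidence of a bound site.

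The stretches below hold every E-box upstream of the start in 7 of these genes, except for one in Ctsd farther upstream. Capitals mark CACGTG, and each sequence runs 5′ to 3′ on the strand of its gene. The first 4 genes rose with ruxolitinib and the last 3 did not pass.
Lamp1: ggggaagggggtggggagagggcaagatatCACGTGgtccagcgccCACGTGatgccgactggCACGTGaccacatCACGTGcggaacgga
Mcoln1: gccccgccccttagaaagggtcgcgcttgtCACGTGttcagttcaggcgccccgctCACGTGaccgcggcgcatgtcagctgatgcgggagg
Lgmn: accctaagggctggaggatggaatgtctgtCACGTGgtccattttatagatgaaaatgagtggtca
Naglu: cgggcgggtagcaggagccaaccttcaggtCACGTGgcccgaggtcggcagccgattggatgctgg
Ctsd: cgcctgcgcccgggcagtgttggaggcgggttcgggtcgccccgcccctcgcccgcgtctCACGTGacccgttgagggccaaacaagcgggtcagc
Gla: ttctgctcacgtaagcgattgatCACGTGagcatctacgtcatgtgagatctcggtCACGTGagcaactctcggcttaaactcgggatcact
Atp6v1a: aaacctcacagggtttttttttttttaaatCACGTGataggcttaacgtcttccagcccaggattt
The Lamp1 stretch lies at chr8:13159070-13159160 on the plus strand and held 4 E-boxes, the most among the 32 lysosome genes with a promoter in this 300-base window. Those of Mcoln1 (chr8:3500418-3500509) and Naglu (chr11:101069991-101070056) are also on the plus strand. Those of Lgmn (chr12:102439106-102439171), Ctsd (chr7:142387890-142387985), Gla (chrX:134601164-134601255) and Atp6v1a (chr16:44139355-44139420) are on the minus strand. Lamp1, with 4 E-boxes, had a log2 fold change of 1.97 ± 0.24, and Gla, with 2 copies of the extended motif, had a log2 fold change of 0.01 ± 0.21.

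**Figure D3:**
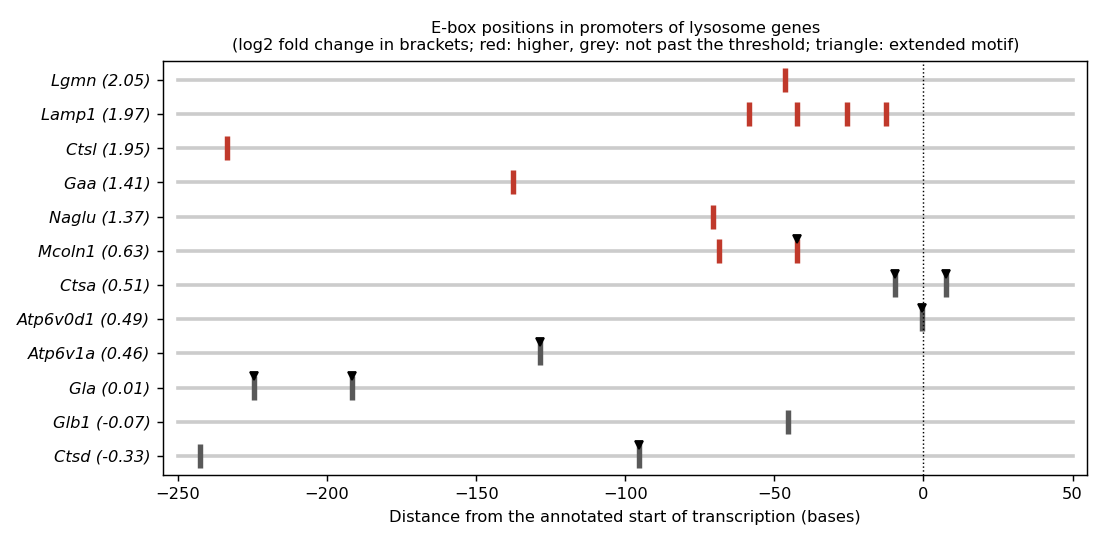
Position of each CACGTG (ticks) from 250 bases before to 50 after the annotated start of transcription in the 12 lysosome genes that hold one, ordered by log2 fold change. Triangles mark TCACGTGA, which stands in Mcoln1 (0.63) and in 5 genes that did not pass the threshold.

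Among the 10 protease genes 8 rose, beside 29.9% of all genes tested. The proteases had some large changes and some small ones. Ctsb, which encodes the cysteine protease cathepsin B (chromosome 14, 63122462 to 63145923, mm10 as deposited), had 4329, 4495 and 3016 CPM in ruxolitinib pools, against 778, 635 and 1028 CPM in control pools. Every ruxolitinib pool lay above every control pool, and the log2 fold change was 2.28 ± 0.30 (adjusted p = 0.000276). Ctsh, an aminopeptidase of the same papain family, had the largest protease change, with 114, 135 and 81.5 CPM against 23.8, 14.5 and 21.8 CPM in controls (2.46 ± 0.27, adjusted p = 0.000109). Ctsz, a carboxypeptidase, averaged 312 ± 72.7 CPM with ruxolitinib and 70.0 ± 24.1 CPM in controls (2.16 ± 0.31). Tpp1, which trims tripeptides from protein ends, averaged 139.8 ± 19.7 CPM and 31.4 ± 4.98 CPM (2.15 ± 0.22, adjusted p = 6.19e-05). Lgmn encodes legumain, which cuts after asparagine and matures cathepsins. It had 434, 478 and 306 CPM with ruxolitinib, against 66.9, 65.4 and 161 CPM in controls (2.05 ± 0.38, adjusted p = 0.00150), with control pool 6 the high one of its group. Ctsl, cathepsin L, averaged 60.1 ± 8.90 CPM and 15.5 ± 5.40 CPM (1.95 ± 0.27).

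The other 4 proteases had smaller values. Ctss, the cathepsin that trims the MHC class II invariant chain in antigen-presenting cells, had 462, 475 and 401 CPM with ruxolitinib, against 272, 239 and 331 CPM in controls (0.67 ± 0.22, adjusted p = 0.0282). Ctsc, which activates granzymes and neutrophil serine proteases, had 226, 220.3 and 215 CPM, against 182, 115 and 133 CPM (0.62 ± 0.22, adjusted p = 0.0391). The groups did not overlap in either gene, but both calls depended on single pools. The call of Ctss was lost when ruxolitinib pool 1 (adjusted p = 0.0723) or 2 (0.0803) was left out, or control pool 4 (0.0929) or 5 (0.140). The call of Ctsc was lost on leaving out ruxolitinib pool 1 (0.0867), 2 (0.0852) or 3 (0.0624) or control pool 5 (0.165) or 6 (0.0634). Ctsa encodes the carboxypeptidase that shields the sialidase NEU1, and its pools did not overlap either, with 408, 421 and 352 CPM against 297, 270.2 and 263 CPM (0.51 ± 0.21, adjusted p = 0.0594). It passed with DESeq2 (adjusted p = 0.0161), with limma-voom (0.0442) and without ruxolitinib pool 3 (0.0467). Ctsd, the aspartic protease cathepsin D (chromosome 7, 142375911 to 142388038), went the other way in its point estimate. It had 2151, 2402 and 1883 CPM with ruxolitinib, against 2050.0, 2490.4 and 3569 CPM in controls, with overlapping groups and a log2 fold change of -0.33 ± 0.28 (adjusted p = 0.340).

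Of the 9 glycosidase genes 4 rose and 5 did not pass, beside 29.9% of all genes tested called higher. Hexa, the alpha subunit of the enzyme that degrades GM2 ganglioside, had 357, 385 and 267 CPM with ruxolitinib, against 73.0, 70.1 and 101 CPM in controls (2.04 ± 0.25, adjusted p = 0.000172). Man2b1, an alpha-mannosidase of glycoprotein breakdown, had 509, 435 and 356 CPM against 191, 149 and 98.2 CPM (1.57 ± 0.29, adjusted p = 0.00141). Gaa, which degrades glycogen, had 74.1, 76.8 and 64.0 CPM with ruxolitinib, against 31.5, 25.1 and 24.4 CPM in controls (1.41 ± 0.20), and Naglu, an enzyme of heparan sulfate breakdown, 36.7 ± 4.43 CPM and 14.1 ± 3.63 CPM (1.37 ± 0.24). In these 4 genes no ruxolitinib pool overlapped a control pool. Among all genes tested, 35.7% had non-overlapping groups with ruxolitinib higher. The sialidase gene Neu1 averaged 56.0 ± 5.60 CPM with ruxolitinib and 45.1 ± 1.81 CPM in controls (0.31 ± 0.18, adjusted p = 0.174). In Neu1, too, every ruxolitinib pool lay above every control pool. The alpha-galactosidase gene Gla had nearly equal means, 17.3 ± 2.06 and 17.1 ± 0.696 CPM. Glb1 (beta-galactosidase, -0.07 ± 0.18), Manba (beta-mannosidase, -0.29 ± 0.24) and Gusb (beta-glucuronidase, -0.30 ± 0.22) had negative estimates, adjusted p-values of 0.269 to 0.757 and overlapping groups.

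Of the 6 genes of lipid handling, counted with progranulin, 5 rose, by 3.96-fold (Asah1) or more. Of all genes tested, 29.9% rose. Psap encodes prosaposin, which is cut into the saposins that present sphingolipids to their hydrolases (chromosome 10, 60277627 to 60302597). It had 4851, 5469 and 3910.4 CPM with ruxolitinib, against 1115, 1001 and 742 CPM in controls, a 4.98-fold difference (log2 fold change 2.32 ± 0.29, adjusted p = 0.000191). Grn, progranulin, a secreted partner of prosaposin, had 815, 769 and 528 CPM, against 139.6, 117 and 184 CPM (2.26 ± 0.28, adjusted p = 0.000187). Lipa, the acid lipase that frees cholesterol from its esters, had 322, 288 and 209.6 CPM, against 44.2, 36.5 and 53.5 CPM (2.61 ± 0.25, adjusted p = 5.15e-05). Asah1, acid ceramidase, averaged 101 ± 25.8 CPM and 25.5 ± 4.01 CPM (1.99 ± 0.24), 3.96-fold higher.

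Of the pair that carries cholesterol out of the lysosome, Npc1 rose and Npc2 did not pass. Npc1, the membrane transporter, had 57.4, 40.2 and 41.9 CPM with ruxolitinib, against 9.64, 7.52 and 4.11 CPM in controls (2.71 ± 0.33, adjusted p = 0.000163). Npc2, its soluble partner, had 441, 517 and 441 CPM, against 621, 674 and 616 CPM (-0.45 ± 0.21, adjusted p = 0.0989, and adjusted p = 0.0414 with DESeq2). Under TMM scaling the 2 genes thus had non-overlapping groups in opposite directions. Among all genes tested, 35.7% had such groups with ruxolitinib higher and 30.3% with ruxolitinib lower. In GENCODE release M21 exons of Npc1 share 511 bases with Rmc1 on the opposite strand. Rmc1 holds 115% as many counts as Npc1, so the Npc1 level depends on how reads in those bases were assigned. The deposited coordinates of Npc1 differ from those of M21, so the overlap in the annotation used for counting is not known.

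Of the 8 membrane protein genes 5 rose, beside 29.9% of all genes tested. Gpnmb, a glycoprotein of phagocytic macrophages and a known MITF target, had 38.8, 67.5 and 52.0 CPM with ruxolitinib, against 5.37, 3.34 and 3.8 CPM in controls. That is a 12.6-fold difference, the largest of the 36 genes (3.65 ± 0.30, adjusted p = 2.55e-05). Cd63, a tetraspanin of lysosomes and secretory granules, had 184, 225 and 147 CPM, against 37.7, 24.4 and 62.7 CPM (2.16 ± 0.34, adjusted p = 0.000646). Lamp1, a major glycoprotein of the lysosomal membrane, had 754, 697 and 509 CPM, against 169, 165 and 168 CPM (1.97 ± 0.24, adjusted p = 0.000158). Its 3 control pools were the closest of any of the 36 genes, with a coefficient of variation of 1.45%. Laptm4a, a small membrane protein of late endosomes, averaged 238 ± 46.2 CPM and 86.7 ± 14.5 CPM (1.46 ± 0.23). Mcoln1, the calcium channel TRPML1, had 33.4, 30.1 and 21.8 CPM against 17.4, 17.3 and 20.4 CPM (0.63 ± 0.23, adjusted p = 0.0393). Its call was lost without ruxolitinib pool 1 (adjusted p = 0.130) or 2 (0.111) or control pool 4 (0.102) or 5 (0.121).

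Lamp2, the close relative of Lamp1, behaved differently in the table. It had 158, 115 and 99.9 CPM with ruxolitinib, against 88.6, 84.4 and 206 CPM in controls (-0.02 ± 0.35, adjusted p = 0.965). Control pool 6 was the highest of all 6 libraries, and without it the value was 0.51 (adjusted p = 0.0743). Laptm5, a haematopoietic lysosomal protein that sends antigen receptors of T and B cells to degradation, had 1466, 1348 and 1710.2 CPM with ruxolitinib, against 1599.8, 1823 and 2115 CPM in controls (-0.29 ± 0.25, adjusted p = 0.333). It was the only one of the 36 genes in which ruxolitinib pool 3 was the highest of its group. Scarb2, which carries glucocerebrosidase to the lysosome, averaged 97.8 ± 12.4 CPM and 74.7 ± 6.14 CPM, with groups that did not overlap (0.39 ± 0.19, adjusted p = 0.109).

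None of the 3 genes of the pump and its regulator passed. Atp6v0d1, a subunit of the membrane sector, had 209.8, 209 and 155 CPM with ruxolitinib, against 122, 124 and 163 CPM in controls (0.49 ± 0.22, adjusted p = 0.0859). Leaving out ruxolitinib pool 3 (adjusted p = 0.0470) or control pool 6 (0.0253) put it past the threshold. Atp6v1a, the catalytic subunit, had 150.3, 121 and 113 CPM, against 78.5, 76.9 and 124 CPM (0.46 ± 0.24, adjusted p = 0.133), and without control pool 6 its value was 0.71 (adjusted p = 0.0114). In both genes the groups overlapped through control pool 6. Tfeb, the regulator, had 48.4, 57.4 and 47.8 CPM with ruxolitinib, against 50.9, 63.3 and 52.8 CPM in controls (-0.12 ± 0.19, adjusted p = 0.615).

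The mixture of lysosomal transcripts differed between groups, which can be read without any scaling between libraries. The level of each gene was divided by its length as deposited and expressed as a share of the sum over the 36 genes in the same library. In GENCODE release M21 exons of Ctsd share 808 bases with Gm49369 on the same strand. Gm49369 holds 0 counts, and the Ctsd level depends on how reads in those bases were assigned. Ctsd took 15.4 ± 0.583% of this sum with ruxolitinib and 36.9 ± 5.48% in controls, where it ranked first. Psap took 28.6, 30.3 and 28.4% in ruxolitinib pools, where it ranked first, against 14.7, 12.7 and 7.55% in control pools. Ctsb took 10.9 ± 0.874% and 4.34 ± 0.607%, and Laptm5 6.89 ± 1.88% and 15.8 ± 0.769% (SD, n = 3 each). The groups overlapped in none of these 4 shares. Ctss, next in order, took 5.57 ± 0.293% and 6.72 ± 0.556%, also without overlap. Such separation held for all of the 36 shares except those of Ctsc, Man2b1 and Naglu, so it is not particular to the shares named here. The shares in a library add up to a fixed total, so larger shares of Psap and Ctsb leave less for other genes. A lower share is therefore not by itself a lower level. Ctss rose in level (log2 fold change 0.67 ± 0.22), and Ctsd (-0.33 ± 0.28) and Laptm5 (-0.29 ± 0.25) did not pass. At the other end were Manba, lowest with ruxolitinib at 0.0543% of the sum (ranked 36), and Gpnmb, lowest in controls at 0.0213%.

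Ratios within a library, chosen after the values were seen, restate values given above and are not a separate result. There were 2.01, 1.87 and 1.60 reads of Ctsb for each read of Ctsd in ruxolitinib pools, against 0.379, 0.255 and 0.288 in control pools. For Psap over Ctsd the ratios were 2.25, 2.28 and 2.08, against 0.544, 0.402 and 0.208. For Lamp1 over Lamp2 they were 4.76, 6.05 and 5.10, against 1.91, 1.95 and 0.815. A ratio of 2 genes shows that they changed unequally and does not say which of them changed.

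**Figure D4:**
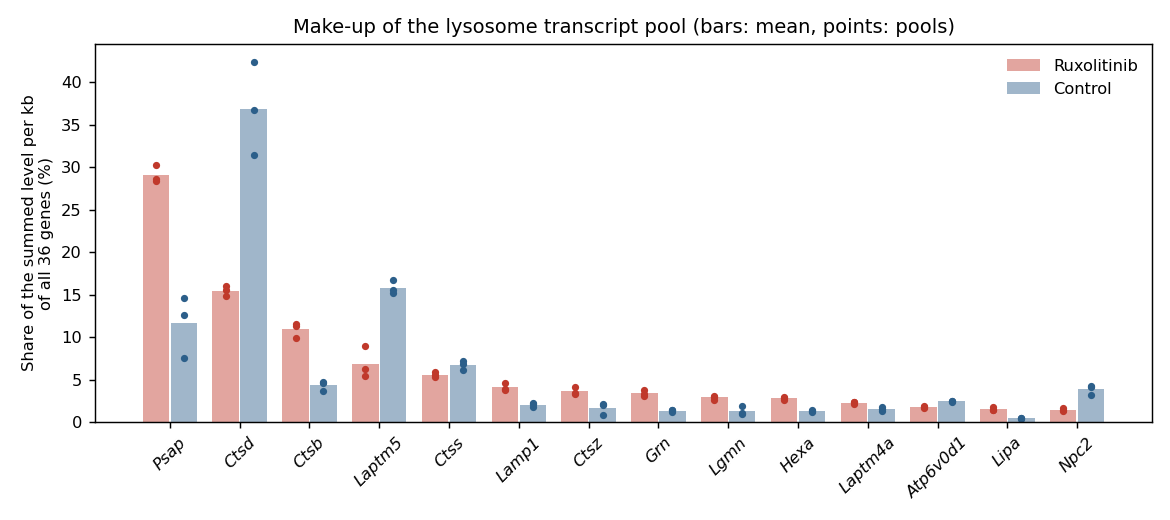
Share (%) of each gene in the summed level per kilobase of the 36 lysosome genes, for the 14 genes with the highest share in ruxolitinib libraries. Bars are means and points are pools, ruxolitinib in red and control in blue, with Psap at 29.1 against 11.6% and Ctsd at 15.4 against 36.9%.

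Libraries were also scaled to the 17 CD8 T cell identity genes, which assumes that those genes do not respond to the drug. All 36 lysosome genes were then higher with ruxolitinib, against 70.4% of all genes tested called higher and 0.482% lower. This scaling put the median of all genes tested at 2.00 on the log2 scale and that of the 36 genes at 3.39. The 8 genes with negative values under TMM scaling (Ctsd, Glb1, Gusb, Manba, Npc2, Lamp2, Laptm5 and Tfeb) took values of 1.53 to 1.95 and stayed below the median of all genes. Gpnmb (5.61 ± 0.69) and Npc1 (4.79 ± 0.66) stayed the highest. A change of library scale shifts all genes by a similar amount, so the order of genes under it is not a separate result.

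The wider pathway was read from 5 further lists with no gene in common with the 36. The counts stand beside 29.9% of all genes tested called higher and 25.3% lower. Relative to the CD8 identity genes these shares were 70.4% and 0.482%. Among 44 other hydrolases and their activators 26 rose and 3 fell, and the median log2 fold change was 1.05 (40 and 0 relative to the CD8 identity genes). Among those with the smallest p-values were the cathepsin gene Ctsf (3.90 ± 0.40) and the sulfatase gene Arsg (3.43 ± 0.36). The 3 that fell, named after their values were seen, were Ctsw, a cathepsin of cytotoxic lymphocytes (-2.42 ± 0.42), the folate-processing gene Ggh (-1.53 ± 0.25) and Rnaset2b (-1.62 ± 0.60), whose reads could be shared with its near-identical neighbour Rnaset2a. Ctsw had 41.7, 58.3 and 137 CPM with ruxolitinib, against 406, 525 and 339 CPM in controls. It was lowest in the pools with the lowest CD8 identity sums.

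Among 33 other membrane proteins and transporters 32 could be tested, of which 18 rose and 2 fell (median 0.79, and 29 and 0 relative to the CD8 identity genes). Cd68, the macrophage relative of Lamp1, had 457, 423 and 285 CPM with ruxolitinib, against 37.4, 27.5 and 31.8 CPM in controls (3.59 ± 0.27, adjusted p = 2.09e-05). Slc11a1, a metal transporter of phagosomes, rose by 3.23 ± 0.25, the polyamine exporter gene Atp13a2 by 3.21 ± 0.27 and the peptide transporter gene Slc15a3 by 2.32 ± 0.21 on the log2 scale. Of the 2 that fell, named after their values were seen, Abcb9, a lysosomal peptide transporter gene, fell to 29.3, 38.1 and 44.8 CPM with ruxolitinib, against 159, 132 and 145 CPM in controls (-1.96 ± 0.22). The calcium channel gene Mcoln3 fell too (-1.31 ± 0.44). The count of falls was 1 without ruxolitinib pool 1 or 2 or control pool 4.

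Of 18 further subunit genes of the vacuolar proton pump 6 rose and 3 fell, beside 29.9% of all genes tested called higher and 25.3% lower (median 0.22, and 14 and 0 relative to the CD8 identity genes). Atp6v0a1, one of several alternative forms of the large membrane subunit, had 139, 163 and 87.8 CPM with ruxolitinib, against 5.81, 5.63 and 7.04 CPM in controls (4.40 ± 0.29, adjusted p = 1.63e-05). The other forms of that subunit had smaller values, Tcirg1 at 0.70 ± 0.19 (adjusted p = 0.0118) and Atp6v0a2 at -0.01 ± 0.31 (adjusted p = 0.983). Atp6v0d2, the alternative to Atp6v0d1 that is known from osteoclasts and macrophages, rose (2.05 ± 0.28), as did Atp6v0e2 (2.26 ± 0.45, at under 4 CPM in all libraries) and the accessory gene Atp6ap1 (0.95 ± 0.20). The 3 that fell were Atp6v1f (-0.94 ± 0.22), Atp6v1h (-0.86 ± 0.23) and Atp6v0e (-0.84 ± 0.23). Tcirg1, Atp6v0a2 and the 3 falls were named after their values were seen.

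Among 20 genes for MiT/TFE factors and the lysosomal mTORC1 machinery 12 rose and 3 fell (median 0.97, and 18 and 0 relative to the CD8 identity genes). Rragd, a Rag GTPase that ties nutrient state to the lysosome, had 32.0, 25.5 and 15.2 CPM with ruxolitinib, against 0.720, 0.393 and 1.12 CPM in controls (5.00 ± 0.44, adjusted p = 3.21e-05). Fnip2, a partner of folliculin, rose by 4.19 ± 0.36 and Tsc2, which restrains mTORC1, by 1.31 ± 0.21. Tfec, the macrophage member of the MiT/TFE family, rose by 1.94 ± 0.28, and its relatives Mitf (1.53 ± 0.41) and Tfe3 (1.11 ± 0.26), named after their values were seen, rose too. Tfeb was thus the one gene of this 4-gene family that did not pass, although a difference between family members was not tested. The falls, named after their values were seen, were in Lamtor4 (-1.22 ± 0.26) and Lamtor2 (-0.74 ± 0.25), subunits of the Ragulator scaffold, and in Rragb (-1.06 ± 0.39). Without ruxolitinib pool 1 or control pool 4 or 5 the 3 falls became 1.

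Of 20 genes for mannose 6-phosphate sorting and lysosomal tethering 10 rose and 2 fell (median 0.62, and 19 and 0 relative to the CD8 identity genes). Sort1, sortilin, an alternative sorting receptor for prosaposin and other hydrolases, had 214, 158 and 113 CPM with ruxolitinib, against 14.5, 12.4 and 12.0 CPM in controls (3.64 ± 0.28, adjusted p = 2.15e-05). The sorting adaptor gene Gga2 (3.91 ± 0.47) and the tethering genes Plekhm2 (2.02 ± 0.22) and Plekhm1 (1.81 ± 0.23) also rose. The 2 that fell, named after their values were seen, were Gnptab, which helps build the mannose 6-phosphate tag (-1.22 ± 0.23), and Igf2r, a receptor for that tag (-0.53 ± 0.20). The count of falls was 1 without ruxolitinib pool 1 or 2 or control pool 4 or 5, and 4 without control pool 6, and 25.3% of all genes tested were called lower.

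**Figure D5:**
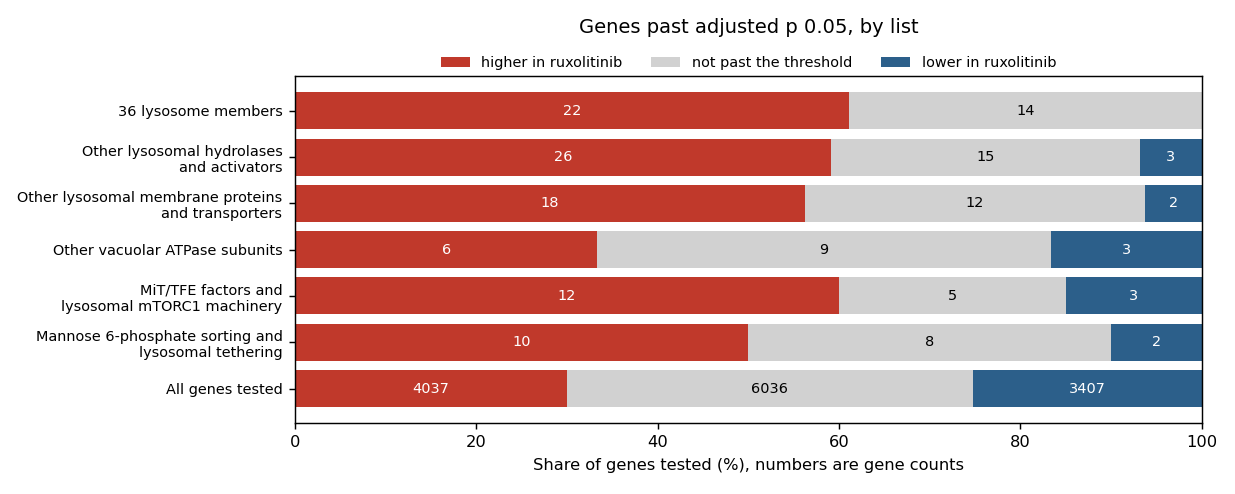
Share of genes tested (%) that were higher (red), not past adjusted p 0.05 (grey) or lower (blue) with ruxolitinib, for the 36 lysosome genes, 5 further lists and all 13480 genes tested, with gene counts printed in the bars. The bar of the 36 genes has 22 higher and 0 lower, and that of the other proton pump subunits, 6 higher and 3 lower, is the nearest to all genes.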

How the data were processed

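RNA sequencing reads of 6 libraries had been aligned with HISAT2 2.0.5 to mm10, per the submitters' processing notes. The authors deposited raw read counts per gene, not normalised, with a gene length in bases. No source used here states the counting program, strand setting or annotation, so reads of overlapping genes on opposite strands cannot be told apart. Of the 36 genes, 35 had the coordinates of GENCODE release M21, and Npc1 did not. In M21, exons of Ctsa, Ctsb, Ctsd, Ctsl, Ctsz, Glb1, Grn, Hexa and Lamp1 also share bases with other genes. Among these were 1742 bases of Ctsl with Gm47123, 774 of Ctsb with Fdft1 and 495 of Ctsa with Pltp, all on opposite strands. The part of these overlaps in the levels was not tested. The test was edgeR's quasi-likelihood F test (version 4.0.16, R 4.3.3) after filterByExpr and TMM, robust and with no covariate. Benjamini-Hochberg adjustment ran over all genes tested. SE is the log2 fold change divided by the square root of F. Alternatives used DESeq2 1.42.0, limma-voom (limma 3.58.1), other filters and scalings, and each pool left out. The script was tested on simulated data. The genes and lists were chosen with earlier results of these data known. Text names all 36 genes, up to 4 called genes with the smallest p in each pathway list and the 2 most abundant markers per list; others were chosen after their values were seen, and some genes that the rule names are not reported here. Precision covers the spread between 3 pools per group. Cd8a was named by rule, and Ahsp, listed as an erythroid marker, was not analysed here.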

Additional observations from a re-analysis of the deposited data

How the results depend on the processing

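Direction and call of 19 of the 22 genes that rose held under each alternative run, and the other 3 (Ctsc, Ctss and Mcoln1) lost their call with no filter on low counts (adjusted p 0.0691, 0.0603 and 0.0742). The count of genes that rose was 19 to 23 with each pool left out in turn, and the count that fell was 0 throughout. DESeq2 called 1 fall. Scaling to the CD8 identity genes gave 36 rises and turned Ctsd to 1.62, Glb1 to 1.89, Gusb to 1.66, Manba to 1.62, Npc2 to 1.53, Lamp2 to 1.95, Laptm5 to 1.61 and Tfeb to 1.86, because it shifts all genes upward. Under it the rises of the further lists were 40 hydrolases, 29 membrane genes, 14 pump subunits and 19 sorting genes, with 0 falls in each list and in the mTORC1 list. Of all genes tested, this scaling called 70.4% higher and 0.482% lower, so few falls are found in any list. Genes with values near 0 changed sign elsewhere, and the cause was not tested. Lamp2 was 0.0197 with total counts alone and 0.0821 with limma-voom, Gla was -0.0259 with no filter, and with pools left out Lamp2 ranged from -0.248 to 0.513 and Gla from -0.0432 to 0.0979. Sorting genes had 1 fall with total counts alone and with no filter, and 1 to 4 falls with pools left out. Falls ranged from 1 to 3 in the membrane and mTORC1 lists and from 2 to 3 in the hydrolases when pools were left out. No filter put the median of all genes at 0.33. No paired analysis was run because the labels give no pairing between ruxolitinib and control pools. With 3 pools a group, a value such as that of Gla (0.01 ± 0.21) does not show that the groups are equal.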
